A study of Bos taurus with 21 samples.

Results

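At 110 days post conception (dpc), RNA from the muscle of 3 Blonde d'Aquitaine (BA) foetuses was compared with RNA from 2 Charolais (CH) foetuses, 1 single-colour array per foetus. These 5 arrays were taken by breed and stage label from the 21 arrays of the study, which cover both breeds at 110, 180, 210 and 260 dpc. The foetuses came from artificial insemination within each breed and received no treatment. Of the BA foetuses, replicates 1 and 3 were male and shared a sire, and replicate 2 was female with another sire. Both CH foetuses were female, with 1 sire each. Sex and breed were therefore partly confounded at this stage, with 2 males among 3 BA and 0 among 2 CH. The study's methods place the foetal myoblasts in proliferation at 110 dpc. They name the muscle *Semitendinosus*, of the hind limb, whereas the sample labels name *Longissimus thoracis*, of the back. The BA foetuses had not been genotyped for the myostatin mutation that is common in their breed.

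BA is a French beef breed known for heavy muscling with little fat, and CH is a large beef breed from the same country. Myostatin, encoded by *MSTN*, is secreted by muscle cells and binds activin type II receptors to restrain the number and size of fibres. Follistatin, encoded by *FST*, binds myostatin and activins outside the cell and keeps them from these receptors. Loss of myostatin function in cattle gives double muscling, which starts with extra fibres formed before birth.

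Levels are given as log2 intensities scaled to the 75th percentile of their array, shifted so that 0 lies at about the array's median probe. A difference (DE) is the BA minus the CH mean on this log2 scale, so that 1 is a doubling. The spread was estimated over all 21 arrays in 8 breed-by-stage groups, since 5 arrays leave few degrees of freedom, and "passed" means a Benjamini-Hochberg adjusted p under 0.05 in limma over the 20150 probes tested. Each array stands for 1 foetus, so that the spread between arrays holds that between foetuses along with any of slide and scan day. In whole muscle, fewer cells of a type and less RNA per cell cannot be told apart.

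The arrays held between 30306 and 34502 probes well above background of 43653, with BA replicate 3 the highest. Pairwise correlations of the 5 arrays over the tested probes lay between 0.963 and 0.987, highest between the CH foetuses. Within BA they were 0.968 to 0.977 and between the breeds 0.963 to 0.983, so these ranges overlapped. The correlations run over probes, which do not count as independent replicates. The SD within the BA group, pooled over probes, was 0.345, the highest of the 8 groups, against 0.242 in CH at the same stage. BA replicate 3 was the array farthest from the median of the 5 on 6734 probes, more than any other array. The arrays lay on 4 slides, and only 1 slide held both breeds at this stage, with BA replicate 2 and CH replicate 1, both female. The difference of these 2 arrays, called the within-slide difference, shares slide, scan day and sex but has no replicate. BA replicate 3 was the only array of this stage on its slide and scan day, and so was CH replicate 2. In both, foetus, slide and scan day cannot be told apart. BA replicate 1 was also alone at this stage on its slide. On the slide of BA replicate 3, the arrays of later stages held 31838 to 34224 probes well above background. All 7 muscle markers with a probe, among them *MYH3*, *ACTA1* and *DES*, were well above background on all 5 arrays. Of the hindlimb genes, *TBX4* was well above background on all arrays, at 0.29 to 1.62, and so was *PITX1*, at −1.62 to 0.28, while *HOXC11* and *HOXD11* were above background on none. The trunk gene *HOXC5* was also well above background on all 5 arrays, at −0.70 to 0.45, and *HOXB7* on 2, at −3.48 to −1.89. The muscle was therefore not settled from these markers.

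Between the breeds, 55 probes passed at 110 dpc, which is 0.273% of those tested. BA was higher on 46 of them (0.228%) and lower on 9 (0.0447%). All 55 were well above background on all 5 arrays, the breeds did not overlap on any of them, and the fold differences ran from 1.45 to 2.89. Over all tested probes, 2777 had an unadjusted p under 0.05 (13.8%), 1292 higher (6.41%) and 1485 lower (7.37%), and the median DE was −0.042. The breeds did not overlap on 29.2% of probes, 11.7% higher and 17.5% lower in BA. The 34 called probes that the annotation could name belong to 30 genes, and 21 called probes have no name there. The lowest p was that of a probe without a gene name (A_73_P122006), at 2.98, 3.04 and 2.80 in BA and 1.32 and 1.49 in CH, a DE of 1.53 (SE 0.19, limma adjusted p = 0.0098).

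*FST* was lower in BA. Its level was 4.61, 4.46 and 4.31 in the BA foetuses and 5.33 and 5.51 in the CH foetuses. Every BA foetus was below both CH foetuses by more than the range within either breed. The means were 4.46 ± 0.15 (SD, n = 3) and 5.42 ± 0.13 (SD, n = 2), a DE of −0.96 (SE 0.19, limma adjusted p = 0.047). *FST* has a single probe, so no second probe could be compared. The DE kept its sign in every fit made, between −0.78 with slide as a block and −1.05 without CH replicate 1, and its adjusted p ranged from 0.032 to 0.80.

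*MSTN* itself was the gene of this pathway with the widest gap. Its first probe was at 3.21, 3.91 and 3.36 in BA and at 1.74 and 1.69 in CH. Its second probe was at 4.29, 4.77 and 3.79 in BA and at 2.51 and 2.47 in CH. On both probes all 3 BA foetuses were above both CH foetuses, and CH varied little. The DE was 1.78 (SE 0.41, limma adjusted p = 0.089) and 1.80 (SE 0.44, limma adjusted p = 0.10), so neither passed at this stage alone. Over the 5 arrays, the exact two-sided permutation p was 0.20 for each *MSTN* probe and for *FST*, the smallest that 10 divisions allow. The within-slide difference of *MSTN* was 2.17 and 2.27. In the other foetuses, at 180 to 260 dpc, the mean breed difference of *MSTN* was 2.08 (limma adjusted p = 0.0012) and 2.06 (limma adjusted p = 0.0015).

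Of the 13 tested genes of the myostatin and activin list, 1 passed, *FST*, against 0.273% of all tested probes, and 3 had an unadjusted p under 0.05, against 13.8%. The third was *WFIKKN2*, a secreted protein that binds myostatin, at 1.83, 1.28 and 1.67 in BA and 2.30 and 2.53 in CH (DE −0.82, limma adjusted p = 0.18). The receptor genes differed little, with a DE of −0.066 for *ACVR2B* and 0.067 for *ACVR2A*, and the mediators *SMAD2*, *SMAD3* and *SMAD4* had a DE of −0.12, 0.21 and 0.20. The median over the list was −0.07, close to that of all probes, and it was above 0, at 0.022, with quantile normalization. *INHBA*, a subunit of the activins, was at 5.02 in BA replicate 1 and between 2.68 and 3.27 in the other 4 foetuses.

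**Figure D1:**
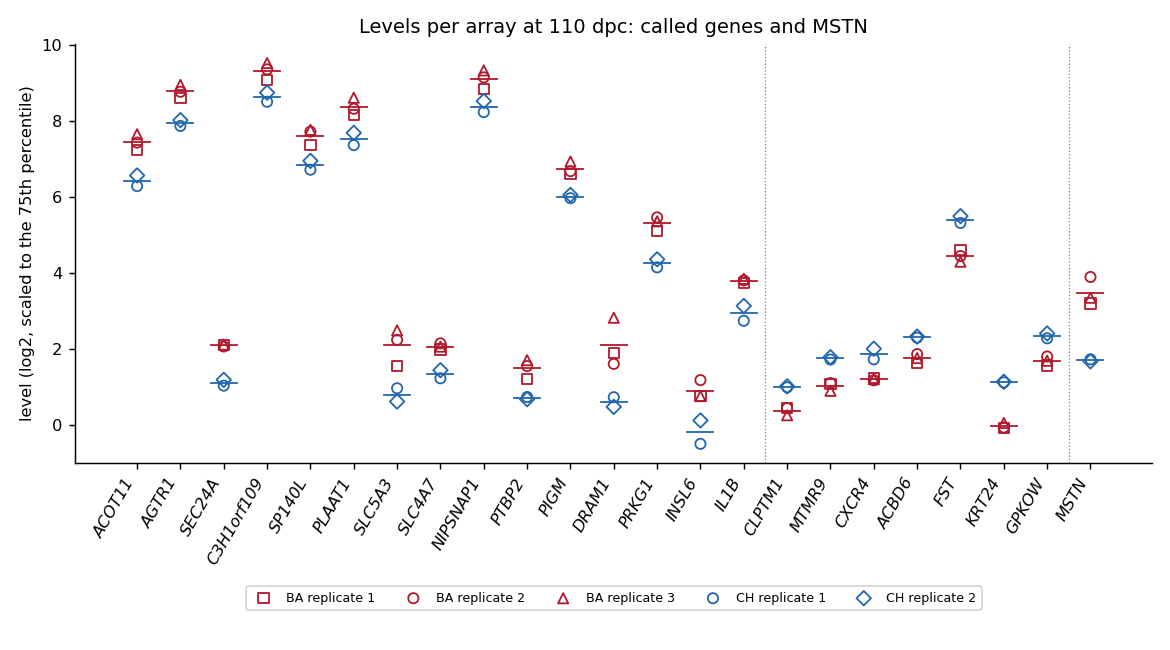
Levels (log2, scaled to the 75th percentile) of each array at 110 dpc for the 15 genes of lowest p higher in BA, the 7 named genes lower in BA and the first MSTN probe, separated by dotted lines, with a bar at each breed's mean. No BA symbol overlaps a CH symbol within a gene, and MSTN, which did not pass, has the widest gap between breed means, 3.49 against 1.71.

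Among the called genes higher in BA, 2 encode membrane transporters of the solute carrier families. *SLC5A3*, which carries myo-inositol into cells with sodium, was at 1.57, 2.25 and 2.50 in BA and 0.98 and 0.63 in CH (DE 1.30, SE 0.23, limma adjusted p = 0.031). *SLC4A7*, a sodium bicarbonate cotransporter, was at 2.00, 2.16 and 2.07 in BA and 1.24 and 1.45 in CH (DE 0.73, SE 0.13, limma adjusted p = 0.031). The BA values of *SLC4A7* lay close together and all above CH, whereas *SLC5A3* in BA replicate 1 stood nearer to CH. Both other *SLC4A7* probes were also higher, by 0.53 and 0.57, and the untested second *SLC5A3* probe by 1.17.

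Signalling genes were also among those higher in BA. *PRKG1*, the cGMP-dependent protein kinase, was at 5.12, 5.47 and 5.37 in BA and 4.16 and 4.37 in CH (DE 1.06, SE 0.21, limma adjusted p = 0.047). Its second tested probe had a smaller DE of 0.33. The cytokine gene *IL1B* was at 3.74, 3.82 and 3.86 in BA and 2.75 and 3.14 in CH (DE 0.86, SE 0.17, limma adjusted p = 0.047), but its 3 other probes were under the expression filter and differed by −0.21 to 0.65. *INSL6*, of the insulin and relaxin family, was at 0.77, 1.19 and 0.77 in BA and −0.49 and 0.13 in CH (DE 1.09, SE 0.21, limma adjusted p = 0.047). Thus *PRKG1* and *IL1B* varied little within BA, and the CH foetuses of *INSL6* differed from each other more than the BA foetuses did.

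*DRAM1*, a lysosomal membrane protein of autophagy, had a DE of 1.51 (SE 0.29, limma adjusted p = 0.047), the largest of a named called gene. Its levels were 1.91, 1.62 and 2.83 in BA and 0.74 and 0.49 in CH, so that BA replicate 3 was high within its breed. *SEC24A*, a cargo adaptor of vesicles that leave the endoplasmic reticulum, was at 2.11, 2.08 and 2.13 in BA and 1.05 and 1.20 in CH (DE 0.98, SE 0.17, limma adjusted p = 0.031). The BA foetuses were almost equal on that probe, but the 3 other tested *SEC24A* probes differed by −0.11 to −0.04. *PTBP2*, which regulates splicing, was at 1.22, 1.56 and 1.72 in BA and 0.75 and 0.69 in CH (DE 0.78, SE 0.14, limma adjusted p = 0.040), and its second, untested probe differed by 0.84. Outside the 15 genes of lowest p and chosen after its values were seen, *MMP19*, a matrix metalloproteinase, was at 2.40, 2.47 and 2.78 in BA and 0.94 and 1.52 in CH (DE 1.32, SE 0.26, limma adjusted p = 0.047). The remaining called genes higher in BA were *ATP2A2*, a calcium pump of slow and cardiac fibres, *SYNPO*, which binds actin, the transcription factor *NFIA*, and *RPAP2*, *GPATCH2*, *DNAJC10* and *BAZ2B*, with a DE between 0.57 and 0.83.

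The other called genes higher in BA formed a set of bright probes. They are 13 called probes with a mean level above 5, which carry 7 named genes and 2 sequences without a name. *ACOT11*, an acyl-CoA thioesterase, has 4 of the 13, and its probe of lowest p was at 7.25, 7.44 and 7.66 in BA and 6.30 and 6.58 in CH (DE 1.01, SE 0.15, limma adjusted p = 0.019). *AGTR1*, the type 1 receptor of angiotensin II, has 2, and its probe of lowest p was at 8.62, 8.78 and 8.96 in BA and 7.88 and 8.03 in CH (DE 0.83, SE 0.14, limma adjusted p = 0.031). The other bright genes were *C3H1orf109* (DE 0.70), *SP140L* (DE 0.78), *PLAAT1*, a phospholipase (DE 0.83), *NIPSNAP1*, a mitochondrial protein (DE 0.72), and *PIGM*, a mannosyltransferase of membrane anchors (DE 0.72).

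On all 13 of these probes BA replicate 3 was the highest BA foetus and BA replicate 1 the lowest, and on 12 of the 13 CH replicate 2 was above CH replicate 1. Of the 3535 tested probes with a mean level above 5, 712 had that order of the BA foetuses, and 1695 had CH replicate 2 above CH replicate 1. Within breed and stage groups over the 21 arrays, the 13 probes varied together, with a median pairwise Pearson r of 0.76 over 78 pairs of probes. The other 33 called probes higher in BA, all at a level of 5 or lower, had a median r of 0.22 over 528 pairs. No r was computed for other bright probes, so signal level and membership of the set cannot be told apart here. This grouping was noticed after the values were seen, the probes share the same arrays, and probes of a gene share its transcript, so the correlations are a description. What the probes have in common beyond their level was not tested.

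The genes lower in BA were fewer. *CXCR4*, the receptor of the chemokine CXCL12 that guides migrating muscle precursors, was at 1.25, 1.19 and 1.22 in BA and 1.74 and 2.02 in CH (DE −0.66, SE 0.12, limma adjusted p = 0.031). The 3 BA foetuses were nearly equal, and the second *CXCR4* probe had a DE of −0.43 without overlap. *MTMR9*, of the myotubularin family, was at 1.10, 1.11 and 0.91 in BA and 1.73 and 1.79 in CH (DE −0.72, SE 0.13, limma adjusted p = 0.031). *CLPTM1*, a membrane protein, was at 0.46, 0.45 and 0.27 in BA and 1.00 and 1.03 in CH (DE −0.62, SE 0.11, limma adjusted p = 0.031).

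*KRT24*, a keratin, had the largest difference of the named genes that passed and were lower in BA, at −0.070, −0.054 and 0.064 against 1.13 and 1.15 in CH (DE −1.16, SE 0.23, limma adjusted p = 0.047). *ACBD6*, which binds acyl-CoA, was at 1.65, 1.88 and 1.77 in BA and 2.31 and 2.34 in CH (DE −0.56, SE 0.11, limma adjusted p = 0.047). *GPKOW*, a nuclear RNA-binding protein, was at 1.58, 1.81 and 1.70 in BA and 2.29 and 2.42 in CH (DE −0.66, SE 0.13, limma adjusted p = 0.047). Each of these genes separated the breeds by more than the range within a breed. Just outside the threshold, *ST13*, a co-chaperone of heat shock proteins, had a DE of −0.49 (limma adjusted p = 0.051), and *NDST1*, which modifies heparan sulphate, −1.64 (limma adjusted p = 0.054). *CINP*, which binds a cyclin-dependent kinase, had a DE of −0.99 (limma adjusted p = 0.054). *NDST1* ranged from 0.13 to 1.52 within BA and was at 2.42 and 2.39 in CH.

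**Figure D2:**
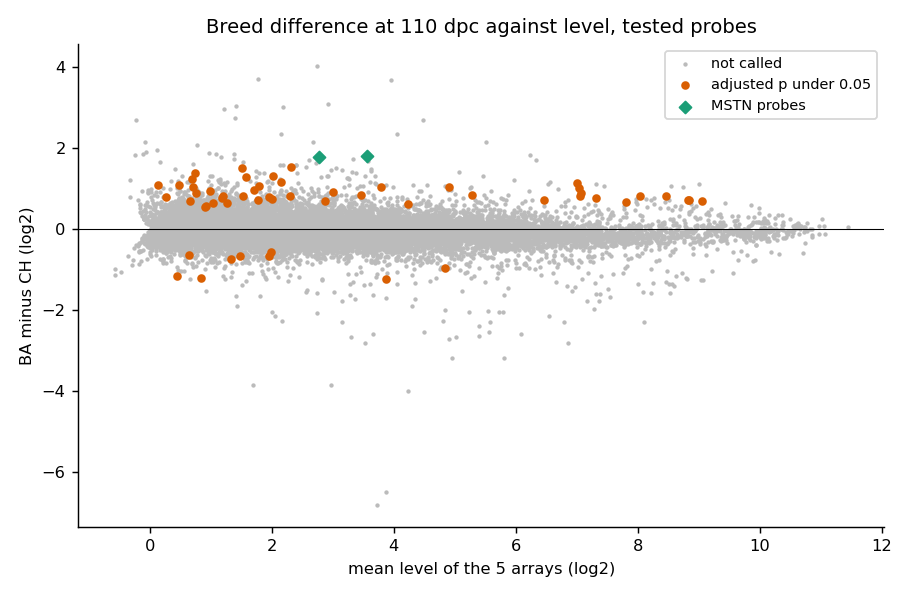
DE at 110 dpc (BA minus CH, log2) against the mean level of the 5 arrays (log2) for each tested probe, with the 55 called probes in orange and the 2 MSTN probes as green diamonds. The called probes above 0 include a group of 13 at mean levels above 5, with a DE between 0.66 and 1.15, and the MSTN probes lie higher without having passed.

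Probes of 1 gene did not always move together. Of the 30 genes with a called probe, 18 had at least 1 other tested probe, 38 probes in all. Of these 38, 29 (76.3%) had the sign of the called probe, and 12 of the 29 had an unadjusted p under 0.05. Over all 3939 genes with several tested probes, the share with the sign of the gene's probe of lowest p was 69.4%, so the called genes lay near that background. For 12 of the 18 genes every other tested probe had the same sign, among them *ACOT11*, *SLC4A7*, *CXCR4* and *BAZ2B*. For 4 genes none had it: *SEC24A*, *PLAAT1*, *NIPSNAP1* and *NFIA*.

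The size of the difference also depended on the probe. In *ACOT11* the 4 called probes differed by 0.73 to 1.15 and the 3 others by 0.20 to 0.36. *AGTR1* split by probe: 4 of its 6 probes were higher in BA, by 0.57 to 0.83, and the 2 dimmest had a DE of −0.75 and −0.81, without overlap of the breeds. On 1 of these 2 the BA foetuses were at 1.76, 1.85 and 1.97 and the CH foetuses at 2.53 and 2.69. The direction of *AGTR1* was therefore not the same on all its probes. *SP140L* had a second tested probe with a larger DE of 1.52. *BAZ2B* had 6 other tested probes, all higher by 0.15 to 0.26, against 0.66 on the called one.

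Single arrays decided much of the count. For BA replicate 3 and CH replicate 2, the foetus cannot be told apart from slide and scan day. Without BA replicate 3, 1 probe passed, and without BA replicate 1, 184 passed, 51 of them among the 55. Without BA replicate 2, CH replicate 1 or CH replicate 2, 9, 25 and 8 probes passed, of which 7, 4 and 3 were among the 55. Where a CH array was left out, CH was 1 foetus, assumed to vary like the other groups. Each of the 55 kept its direction with any of the 5 arrays left out and in the within-slide difference. The breeds did not overlap on any of the 55, so this outcome was fixed in advance and shows nothing further. For *ACOT11* the DE ranged from 0.87 to 1.15 over the left-out arrays, and for *CLPTM1* from −0.65 to −0.56.

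Terms for slide, scan day and sire also moved the count. With slide as a block no probe passed, though 2001 had an unadjusted p under 0.05, with scan day as a block 1 passed, and with sire within breed 7. All 55 kept their sign in each of these fits. With sex as a covariate 15 probes passed, 12 of them among the 55, and the female foetuses of all stages alone gave 2, neither among the 55. With the sex covariate *SLC4A7* had a DE of 0.85 (limma adjusted p = 0.017), *ACOT11* 1.04 (limma adjusted p = 0.043) and *MTMR9* −0.78 (limma adjusted p = 0.044), and *FST* −0.92 (limma adjusted p = 0.12). A probe without a name in the annotation (A_73_119243) followed sex, at 7.69 to 8.09 in the 3 females here. Over the study it lay between −3.09 and −0.50 in the 8 males and between 6.81 and 8.24 in the 13 females. Of the 55 called probes, 3 had an unadjusted p under 0.05 for sex, against 8.36% of all tested probes.

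**Figure D3:**
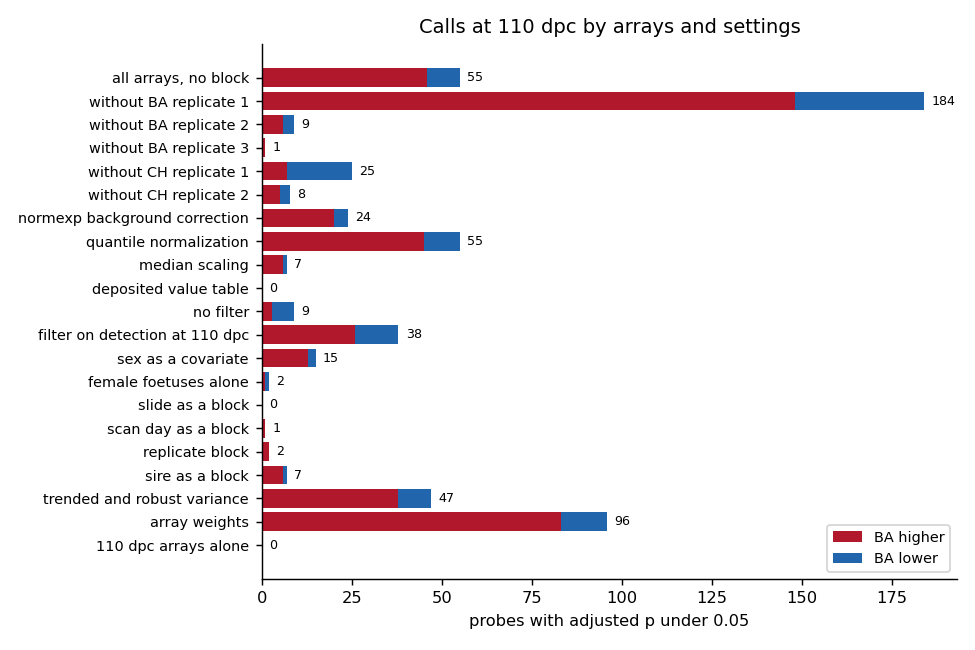
Number of probes with an adjusted p under 0.05 at 110 dpc (horizontal bars from 0, red for BA higher and blue for BA lower) with all arrays, with each of the 5 arrays left out, and under each other setting. The count of 55 fell to 1 without BA replicate 3 and was 184 without BA replicate 1.

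The foetuses at 180, 210 and 260 dpc are other animals, so their breed difference is a separate measure of the same probes. They came from the same sires as the foetuses at 110 dpc, and their arrays lay partly on the same slides. The measure is therefore not independent of sire or slide. Of the 55 called probes, 44 (80%) had the same sign in the mean of the later stages, against 57.8% of all probes tested. On the median called probe the later difference was 0.11 of that at 110 dpc. The probes were chosen for their difference at 110 dpc, so part of this fall follows from the choice. With an unadjusted p under 0.05 at the later stages (7.93% of all tested probes), 11 had the same sign and 1 the opposite one, *CLPTM1*, with 0.13. The later stages' mean passed for 3 of the 55, and for 0.114% of all tested probes: *MMP19* (0.95, limma adjusted p = 0.010), *KRT24* (−0.73, limma adjusted p = 0.027) and *ACBD6* (−0.39, limma adjusted p = 0.0086). For *FST* it was −0.36 (limma adjusted p = 0.28), with −0.34, −0.041 and −0.70 at 180, 210 and 260 dpc.

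Most of the named genes higher at 110 dpc were close to 0 later, on probes chosen for their difference at 110 dpc. The mean later difference was 0.061 for *ACOT11*, 0.042 for *AGTR1*, 0.061 for *SLC5A3* and −0.084 for *IL1B*. The contrast of 110 dpc against the later stages passed for no tested probe in limma, with 1880 at an unadjusted p under 0.05 (9.33%). The 5 genes of lowest p in it were *CLPTM1*, *ACOT11*, *SP140L*, *MGLL* and *NOVA1*. *MGLL*, which cleaves monoglycerides, had a DE of −0.45 at 110 dpc and 0.23 later, and *NOVA1*, a splicing factor, 0.80 and −0.37. Few probes passed at the single later stages, 2 at 180 dpc (0.00993%) and 0 at 210 and at 260 dpc.

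**Figure D4:**
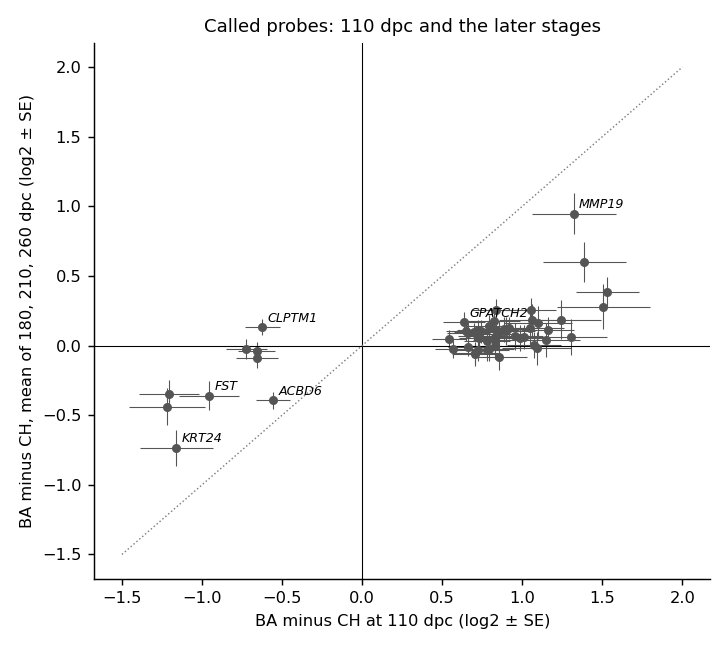
DE of the 55 called probes at 110 dpc (horizontal axis) and in the mean of 180, 210 and 260 dpc (vertical axis), log2 with SE bars, with equality as a dotted line and names for named genes with a later unadjusted p under 0.05. Most probes lie near 0 on the vertical axis, and MMP19, KRT24 and ACBD6 lie farther from it, at 0.95, −0.73 and −0.39.

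The filter asks for a group mean above the median probe in at least 7 of the 8 groups, so it leaves out genes on at 110 dpc alone. Over all 43651 probes with a fit, 9 passed (0.0206%), 7 of them outside the filter. *APOC4*, an apolipoprotein, was at −0.65, −0.44 and −0.58 in BA and 2.12 and 2.08 in CH, a DE of −2.66 (SE 0.28, limma adjusted p = 0.0035). This is 6.30-fold, and the probe was well above background on all 21 arrays. *GSTA3*, a glutathione transferase, was well above background in both CH foetuses and in no BA foetus, on both its probes. On its first probe CH was at −0.84 and −0.36, at least 5.41-fold above the BA arrays' background bound (limma adjusted p = 0.026).

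Other genes outside the filter rested on fewer probes. One *HNF4G* probe, of a nuclear receptor, was well above background in CH alone, at −0.86 and −1.82, at least 3.25-fold above the bound (limma adjusted p = 0.0035). The 3 other *HNF4G* probes had a DE between −0.34 and 0.82. *LIN37*, a subunit of a cell cycle repressor complex, was well above background in 2 of the BA foetuses and both CH foetuses, at −2.39, −2.73 and −2.15 in BA and −0.93 and −0.81 in CH (DE −1.55, limma adjusted p = 0.044). *TEX35* had a DE of −1.60 (limma adjusted p = 0.053). Higher in BA but not passed were *SLC2A13*, a myo-inositol transporter like *SLC5A3* (DE 1.04, limma adjusted p = 0.067), and *STAR*, which carries cholesterol into mitochondria (DE 1.29, limma adjusted p = 0.091). *TNFSF18*, *EML5* and *AKAP6* were similar, with an adjusted p from 0.085 to 0.094. With the filter set instead on detection in at least 2 of the 5 arrays, 38 probes passed (0.117%), 26 higher (0.0802%) and 12 lower (0.037%), 20 of them among the 55.

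Wide differences between single foetuses were found in interferon-induced genes, which cells switch on when interferon reaches its receptor during antiviral responses. *MX1*, an antiviral GTPase, was at 1.45, 3.29 and 7.74 in BA and 1.07 and 1.07 in CH. *ISG15*, a ubiquitin-like modifier, was at −0.11, 1.81 and 8.09 in BA and −0.032 and −0.88 in CH. *OAS1Y*, an oligoadenylate synthetase, was at 1.15, 3.40 and 8.55 in BA and 0.73 and −0.074 in CH. BA replicate 3 was thus far above all, BA replicate 2 between, and BA replicate 1 near the CH foetuses. The array of BA replicate 3 was also alone at this stage on its slide and scan day.

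Of the 13 interferon-induced genes tested, none passed and all 13 had a DE above 0, with a median of 1.46 against −0.042 for all probes. Without BA replicate 3 the median was 0.26, and the within-slide median, BA replicate 2 against CH replicate 1, was 0.83. Of the 26 genes of the list with a probe, 26 were well above background in BA replicate 3, 22 and 21 in BA replicates 1 and 2, and 19 in each CH foetus. Of all 43653 probes, 34502 were so in BA replicate 3 and 31636 and 30306 in BA replicates 1 and 2. In CH replicates 1 and 2 it was 30948 and 30883. *LGALS3BP* had the lowest p of the list, at 4.31, 4.57 and 5.50 in BA and 3.66 and 4.02 in CH (DE 0.95, limma adjusted p = 0.15). On 5 of the 13 BA was higher without overlap, against 11.7% of all tested probes, namely *LGALS3BP*, *OAS1Y*, *MX1*, *EIF2AK2* and *TRIM21*, named here after their values were seen, and on the last 2 BA replicate 1 was level with the higher CH foetus, at 2.28 against 2.27 and 0.36 against 0.36. In the mean of the later stages the list's median was 0.44.

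Some genes that act with the interferon response were also highest in BA replicate 3. *B2M*, the light chain of class I histocompatibility molecules, was at 8.92 there and at 5.79 to 6.03 in the other 4 foetuses. *IRF7* was at 5.31 against 0.75 to 1.26, and *PSMB8*, of the immunoproteasome, at 4.23 against 0.084 to 0.90. Their lists were mixed. Of 16 tested class I and antigen processing genes, 5 had a DE below 0, and the median was 0.19. Of 17 tested STAT and interferon regulatory factor genes, 6 had a DE below 0, and the median was 0.047. *IFNGR1*, of lowest p in the latter list, was lower in BA without overlap (DE −0.32, limma adjusted p = 0.25). The leukocyte markers of the marker list, 10 with a probe, had a mean level of 2.54 in this foetus and 1.24 to 1.46 in the other 4. *CSF1R* was at 5.14 against 3.18 to 3.86. *CD3E* was above background in this foetus alone, whose array had the most probes above background. The brighter *CD3D* was not highest there, at 5.52 against 5.07 to 5.74. The part of the leukocyte markers in the interferon values was not tested. *PTPRC*, the common leukocyte antigen, differed otherwise, at 3.06, 3.34 and 3.30 in BA and 2.73 and 2.85 in CH (DE 0.45, limma adjusted p = 0.22).

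**Figure D5:**
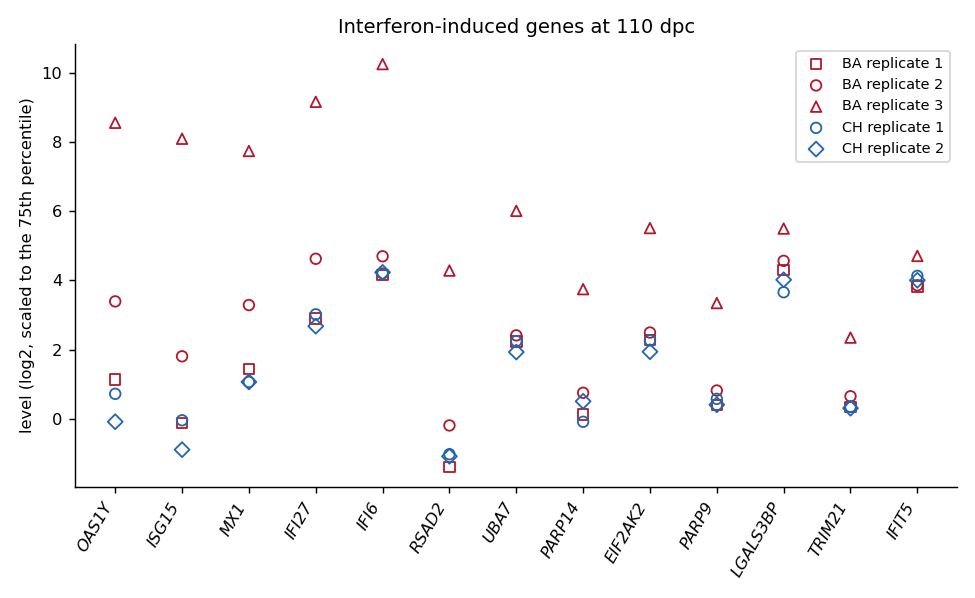
Levels (log2, scaled to the 75th percentile) of the 13 tested interferon-induced genes on each of the 5 arrays at 110 dpc, ordered by DE. BA replicate 3 (triangles) is the highest foetus on every gene, and BA replicate 2 (red circles) is above both CH foetuses on MX1, ISG15 and OAS1Y.

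With each gene of a list taken by its brightest tested probe, no myogenic regulator passed, *CXCR4*, a member of that list, having passed on its dimmer probe. Of 17 tested muscle progenitor and myogenic regulators, 4 had an unadjusted p under 0.05, all lower in BA, against 7.37% of all tested probes, and 7 were lower without overlap, against 17.5%. The list had a median of −0.02, which was 0.0063 with quantile normalization and −0.14 with normexp background correction. *MYF6*, a myogenic factor, was at 3.55, 3.35 and 3.08 in BA and 4.06 and 3.73 in CH (DE −0.57, limma adjusted p = 0.29). *MEF2C*, which works with the myogenic factors, was at 5.25, 5.44 and 4.67 in BA and 5.69 and 5.59 in CH (DE −0.52, limma adjusted p = 0.21). *MYOG*, needed for fusion into fibres, had a DE of −0.61 (limma adjusted p = 0.37) and *MYF5*, of proliferating myoblasts, −0.23.

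By their brightest probes no gene of the sarcomere lists passed, and *ATP2A2*, of the slow fibre list, had a DE of 0.11 on that probe against 0.65 on the called one. Of 9 tested embryonic and fetal sarcomere genes, 7 had a DE below 0, and 5 with quantile normalization, with a DE of 0.17 for the embryonic heavy chain *MYH3* and −0.20 for the perinatal *MYH8*. *ACTA1*, skeletal actin, was at 9.03, 9.36 and 8.92 in BA and 9.66 and 9.51 in CH (DE −0.48, limma adjusted p = 0.27). Of the 10 fast fibre genes, 9 had a DE below 0 and 5 were lower without overlap, against 17.5% of all tested probes. The median over this list was −0.18, against −0.042 for all probes. The list's median was −0.088 without BA replicate 1, −0.12 with quantile normalization and −0.093 in the deposited value table. The median over the 12 slow fibre genes was −0.04, turning to 0.082 with quantile normalization. Of the 14 stretch and Z-disc genes, 13 had a DE below 0, and 10 with quantile normalization. There the list's median went from −0.18 to −0.072, and that of all probes from −0.042 to −0.024. Among the 13 was *TCAP*, the cap of titin, at 4.29, 4.39 and 4.42 in BA and 4.95 and 4.90 in CH (DE −0.56, limma adjusted p = 0.27). The share of all tested probes with a DE below 0 was not counted, so the sign counts of these lists have no background beside them. Of the acetylcholine receptor subunits of the neuromuscular junction, *CHRNA1* was at 7.76, 8.04 and 8.13 in BA and 7.36 and 7.60 in CH (DE 0.50, limma adjusted p = 0.12) and *CHRNG*, the fetal subunit, had a DE of 0.47 (limma adjusted p = 0.50). The DE was 0.34 for *CHRND*, −0.22 for *CHRNB1* and −0.13 for *CHRNE*, and none of these subunits passed.

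In the Notch and Wnt list no gene passed. Of its 21 tested genes, 6 had an unadjusted p under 0.05, all lower in BA, 9 were lower without overlap and 1 was higher without overlap. Of all tested probes 7.37% had such a p and were lower, 17.5% were lower without overlap and 11.7% higher. *FRZB*, a secreted Wnt antagonist, was at 3.15, 3.54 and 3.30 in BA and 3.96 and 4.21 in CH (DE −0.75, limma adjusted p = 0.071). *SFRP1*, of the same family, had a DE of −0.43, the ligand *WNT2B* −0.87 and the Notch ligand *JAG1* −0.46, none of which passed. *CCND1*, the cyclin of entry into the cell cycle, was at 4.38, 3.89 and 4.09 in BA and 4.82 and 4.64 in CH (DE −0.61, limma adjusted p = 0.17). *MCM6*, of the replication helicase, had a DE of −0.48 (limma adjusted p = 0.15), and the median of the 20 cell cycle genes was −0.08, and 0.0060 in the deposited value table.

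Imprinted growth genes differed in direction. *H19* was at 8.48, 8.39 and 8.20 in BA and 8.82 and 8.98 in CH (DE −0.55, limma adjusted p = 0.15). *MEG3*, another imprinted RNA, was at 8.33, 8.52 and 8.48 in BA and 7.43 and 7.94 in CH (DE 0.76, limma adjusted p = 0.28). Neither overlapped between the breeds. *IGF2*, the growth factor gene next to *H19*, had a DE of 0.057.

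In the metabolic lists no gene passed. Of 46 tested oxidative phosphorylation genes, 38 had a DE below 0, and 30 with quantile normalization and 31 in the deposited value table. No share of all tested probes below 0 was counted to set beside these. On 23 of the 46 BA was lower without overlap, against 17.5% of all tested probes, and the median was −0.16 against −0.042 for all probes. *SDHB*, of the succinate dehydrogenase complex, was at 3.87, 4.09 and 3.91 in BA and 4.42 and 4.37 in CH (DE −0.43, limma adjusted p = 0.25). The list's median was between −0.19 and −0.11 with each array left out. It was −0.24 with median scaling, where the median of all probes was −0.12, and −0.067 with quantile normalization, where that of all probes was −0.024. The 11 tested creatine kinase and adenylate enzymes had a median of −0.26, with *CKM*, the muscle creatine kinase, at −0.35 (limma adjusted p = 0.32). *BNIP3*, of mitochondrial turnover in hypoxia, was at 3.66, 3.91 and 3.86 in BA and 4.46 and 4.46 in CH (DE −0.65, limma adjusted p = 0.14).

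Connective tissue genes separated foetuses within BA rather than the breeds. *COL2A1*, the collagen of cartilage, was at 8.02, 4.10 and 5.57 in BA and 5.70 and 4.76 in CH. *TNMD*, of tendon, was at 6.32, 1.66 and 4.14 in BA and 4.28 and 2.81 in CH. BA replicate 1 was the highest and BA replicate 2 the lowest of the 5 on both, as also on *COL11A1*, at 7.10 and 3.24. The mean of the 5 tested tendon and cartilage markers was 7.22 in BA replicate 1, 3.57 and 4.96 in BA replicates 2 and 3, and 5.32 and 4.63 in CH. *FABP4*, of fat cells and capillaries, was also high in BA replicate 1, at 3.01 against −0.33 to 0.20. The breeds overlapped on all of these.

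Some differences owed much of their size to 1 CH array on 1 probe, that of CH replicate 2. This array had 81 of the 258 outlier spots left out, against 7 to 20 on each other array at 110 dpc. It was also alone at this stage on its slide and scan day. The part of spot quality, slide and scan day in these values was not tested. The brightest *MYOD1* probe, of the myogenic factor, was at 8.81 in CH replicate 2, 5.15 in CH replicate 1 and 4.00 to 4.75 in BA (DE −2.64, limma adjusted p = 0.23). Its 2 other tested probes had a DE of −0.75 and −0.45, with the CH foetuses at 1.76 and 1.74 on the first of them. *CEBPA*, a transcription factor of fat cells, was likewise at 10.02 in CH replicate 2 and 7.15 to 8.30 elsewhere, *CEBPB* at 5.98 against 2.89 to 3.79, and *SREBF2*, of cholesterol synthesis, at 9.74 against 7.56 to 8.38. A second tested *SREBF2* probe was at 5.83 there and at 5.11 to 5.43 elsewhere. Without CH replicate 2 the DE of the bright *MYOD1* probe was −0.81. On each tested *MYOD1* probe the BA foetuses were below both CH foetuses.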

How the data were processed

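Muscle RNA of 21 foetuses was labelled with Cy3 and hybridised to Agilent bovine arrays, 1 colour each. Per the labels and methods, the authors made the intensity values with Feature Extraction 10.7, with background and multiplicative detrending and no background subtraction. The deposited value table holds log2 values, of which 99.98% were within 0.01 of the log2 scanner intensity. Control spots and 258 outlier spots were left out. The spots of a probe were averaged, the 75th percentile of the array was subtracted on the log2 scale and 2.69 was added. Probes were named through RefSeq accessions of assembly ARS-UCD2.0, 26628 of 43653. Positions are not given, because the probes were designed on a different assembly. The number of arrays limits the precision.

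With limma 3.58.1 (R 4.3.3), the model held the 8 group means and left 13 residual degrees of freedom. On simulated data of the 110 dpc comparison, 82 of 100 probes shifted by 1 and 93 of 100 shifted by 2 were recovered among 20070, with 7 false calls. The simulated noise was independent between probes, and each probe had the same spread in all groups. It held no slide, scan day, sex or sire effect, so these rates need not hold for the real arrays. Named genes were those that passed (up to 15 a direction by p, and where fewer than 10, the next without overlap), *MSTN*, up to 4 genes of lowest p in each of 36 gene lists, up to 5 a direction outside the filter, and 5 of the contrast with later stages; other named list members and the single-array genes were chosen after their values were seen. The members and lists were chosen with earlier results of these data known. A gene of a list is its brightest tested probe. The alternatives were normexp (offset 50), quantile and median scaling, the value table, 2 other filters, sex, slide, scan day, replicate and sire terms, females alone, a trended variance, array weights, the 5 arrays alone and each array left out. The within-slide difference, and for the lists the sex covariate, the left-out arrays and the scalings, were chosen after seeing the data.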

Additional observations from a re-analysis of the deposited data

Results flagged for a closer look

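Over all probes, the breed difference at 110 dpc differed from that of the later stages on 4 probes in limma, by the test of that difference itself. For *APOC4* (A_73_P032651) the DE was −2.66 at 110 dpc and −0.076 later, a difference of −2.58 (limma adjusted p = 0.0097). The fitted difference was −4.90 on the first *GSTA3* probe (A_73_P264516; limma adjusted p = 0.0097), −4.50 on the second (A_73_P036981; limma adjusted p = 0.016) and −3.79 on the *HNF4G* probe (A_73_P109991; limma adjusted p = 0.0097). Each *GSTA3* probe was well above background on 3 of the 21 arrays and the *HNF4G* probe on 2, in each case with both CH foetuses at 110 dpc among them. Their later breed differences and the BA level at 110 dpc therefore rest almost wholly on background signal, and the fitted values are neither sizes nor bounds. Groups of 3 and 2 arrays were not tested for single foetuses that stand apart.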

How the results depend on the processing

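Of the 55 probes called at 110 dpc, those with a fit kept their direction under every alternative. With arrays left out, and in females or the 5 arrays alone, the lack of overlap fixed this in advance. The count itself moved. It was 24 with normexp, 7 with median scaling, 0 with the deposited value table (759 at an unadjusted p under 0.05), 9 with no filter, 15 with sex as a covariate, 2 with female foetuses alone, 0 with slide as a block (2001 unadjusted), 1 with scan day as a block, 2 with replicate number as a block, 7 with sire as a block, 96 with array weights and 0 with the 5 arrays alone (1758 unadjusted). It was 55 with quantile normalization, 47 with a trended and robust variance and 38 with the detection filter. With each array left out it lay between 1 and 184. Without a filter more probes were tested, in females and the 5 arrays alone fewer arrays were used, and the value table holds the intensities without the scaling. For the others the cause was not tested.

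The contrast of 110 dpc against the later stages had 0 calls with all arrays (1880 unadjusted), 4 with no filter, 4 with the detection filter and 1 in females alone, between 0 and 5 with each array left out, and 0 under the other alternatives. Replicate numbers name different animals and did not pair them: arrays of the same number, centred by group, had a median correlation of 0.0096 over 66 pairs, and −0.036 and 0.048 at 110 dpc. In the block fit, *FST* had an adjusted p of 0.077 in limma. Among the named genes the direction turned in 1 case, *MCM3*, which did not pass, to 0.024 in females alone. Median scaling moved the median of all probes from −0.042 to −0.12. Signal over background limits *HNF4G* and *GSTA3* to bounds.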
